A study of Mus musculus with 6 samples.

Results

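Circular RNAs (circRNAs) of the genes that attach ubiquitin to proteins or take it off were followed in the aortas of male ApoE-/- mice on the C57BL/6 background. From 6 weeks of age, 3 mice received a high-fat diet (HFD) and 3 a chow diet, which the sample labels call a normal diet, for 12 weeks. All 6 mice lacked ApoE, a model in which cholesterol-rich lipoproteins stay in the blood and plaques form in the aorta on an HFD, so the chow diet-fed controls carry the deletion as well. The members are all entries of the deposited circRNA table whose host gene symbol starts with Usp, Ube, Ubr, Fbxo, Fbxw, Fbxl, Herc, Hectd, Rnf, Trim, or Cul and a digit, or is Nedd4, Nedd4l, Birc6, Trip12 or Huwe1. They number 354 of 10023 entries, and Nedd4l had 0. Where entries of the same strand and end started 1 base apart, they were summed to 1 circle, which gave 337 member circles of 9548 in all. These came from 112 of 3981 host genes and held 1382 of 37393 back-spliced reads.

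Ubiquitin is passed along a chain of enzymes. An activating enzyme (E1) charges it, a conjugating enzyme (E2, the Ube2 genes) carries it, and a ligase (E3) chooses the protein that receives it. RING ligases such as the Rnf and Trim proteins hold the E2 beside the substrate, HECT ligases such as Nedd4, Herc and Hectd proteins take the ubiquitin over first, and cullins build multi-subunit ligases in which F-box proteins (Fbxo, Fbxw, Fbxl) pick the substrate. Deubiquitinases such as the Usp proteins reverse the reaction. In arteries the system sets the turnover of receptors, inflammatory signalling proteins and contractile proteins. A circRNA arises when the end of a downstream exon is spliced back to the start of an upstream exon, and reads across this back-splice junction count it. Each circle has 1 such junction whatever its length, so the counts were not divided by length. A circle count is no measure of the host gene's mRNA or protein.

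The junctions of the circles on which the results turn are shown here because these 40 bases are what a read must cross to be counted. The last 20 bases of the circle are in lower case, and its first 20 bases, which follow them across the back-splice, are in capitals. They were taken 5′ to 3′ from the GENCODE vM21 transcript that the table lists for each circle, and positions are for GRCm38. Rnf169, Usp3, Fbxw4 and Ube2k gave the most-read circles whose sequence is shown. The second Usp3 circle and the Rnf13 circles carried the calls between the diets, and the Nedd4 circle did not overlap between them.
Rnf169 mmu_circ_0001605, minus strand, chr7:99935162-99955540, exons 2 to 4: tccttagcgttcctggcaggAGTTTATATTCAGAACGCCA
Usp3 mmu_circ_0001798, minus strand, chr9:66540062-66566903, exons 2 to 8: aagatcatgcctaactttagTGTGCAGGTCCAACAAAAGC
Usp3 mmu_circ_0015811, minus strand, chr9:66540062-66547955, exons 4 to 8: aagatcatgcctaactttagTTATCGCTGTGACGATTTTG
Fbxw4 mmu_circ_0000955, minus strand, chr19:45630865-45640521, exons 2 to 5: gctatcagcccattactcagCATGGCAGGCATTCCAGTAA
Fbxw4 mmu_circ_0000956, minus strand, chr19:45635735-45640521, exons 2 to 4: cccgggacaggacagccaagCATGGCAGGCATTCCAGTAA
Ube2k mmu_circ_0001350, plus strand, chr5:65565989-65594548, exons 2 to 6: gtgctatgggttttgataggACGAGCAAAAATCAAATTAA
Nedd4 circRNA2236, plus strand, chr9:72669952-72686114, exons 2 to 6: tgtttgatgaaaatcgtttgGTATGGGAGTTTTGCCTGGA
Rnf13 circRNA3898, plus strand, chr3:57769040-57796285, exons 3 to 5: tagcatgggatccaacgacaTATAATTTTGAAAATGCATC
Rnf13 mmu_circ_0010724, plus strand, chr3:57769040-57796295, exons 3 to 5: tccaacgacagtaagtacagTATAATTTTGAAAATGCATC
Rnf13 mmu_circ_0010726, plus strand, chr3:57769040-57807127, exons 3 to 7: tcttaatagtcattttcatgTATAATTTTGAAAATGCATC

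The 3 Rnf13 junctions share their capitals, since these circles start at the same exon 3. They differ in what is joined back to it, exon 5, exon 5 with 10 further bases, or exon 7. The junctions of both Usp3 circles share their lower-case bases, since both end with exon 8, and both Fbxw4 circles share the start of exon 2. The smallest of the 3 Rnf13 circles, 295 bases of coding sequence, is given whole, with the 20 bases on either side of the junction in capitals at its beginning and its end.
Rnf13 circRNA3898, chr3:57769040-57796285, whole circle: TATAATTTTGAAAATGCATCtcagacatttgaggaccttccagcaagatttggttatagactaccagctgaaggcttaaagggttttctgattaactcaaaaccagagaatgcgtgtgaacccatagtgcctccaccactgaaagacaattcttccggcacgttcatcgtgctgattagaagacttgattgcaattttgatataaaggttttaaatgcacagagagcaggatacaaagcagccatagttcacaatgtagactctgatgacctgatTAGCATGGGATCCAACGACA

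Back-spliced reads totalled 4694 to 5621 in the HFD-fed aortas and 7142 to 7585 in the chow diet-fed aortas, and the depth behind the authors' normalization was 57.7 to 60.3 and 69.8 to 73.7 M reads. Within a diet, pairs of aortas differed beyond sampling noise over the deposited entries, with a chi-square per degree of freedom of 2.24 to 3.36. Entries that start 1 base apart rarely had reads in the same aorta, as described below. This value therefore also holds reads that fall to different entries of the same circle, and it was not computed on circles. In all, 90 of 2646 circles met the study's criteria for a differentially expressed circRNA (DEC), which are p under 0.05 without adjustment and a change of more than 1 on the log2 scale, with 28 higher and 62 lower in HFD-fed mice, and are termed called here (edgeR's quasi-likelihood test). Without TMM, scaled by library size alone, the split was 37 higher and 38 lower, and the median over all circles moved from -0.13 to 0.04 on the log2 scale. Of the marker lists, smooth muscle genes had reads for 9 of 11 genes, with Tagln and Cnn1 at 0 reads, and took 0.308% to 0.516% of the back-spliced reads in HFD-fed and 0.672% to 0.923% in chow diet-fed aortas, with no overlap. Itga8 held 139 of the 255 reads of this list, and without it, a choice made after seeing the data, the shares were 0.185% to 0.362% and 0.280% to 0.375% and overlapped. Fibroblast genes (3 of 7 with reads, Pdgfra, Lum, Col1a2 and Fbln1 at 0) had 1, 5 and 5 reads against 0, 0 and 1. Leukocyte and macrophage genes (8 of 11 with reads, Cd68, Itgax and Cd74 at 0) had 9 to 12 reads against 9 to 18, endothelial genes (5 of 9 with reads, Cdh5, Flt1, Kdr and Tie1 at 0) 4 to 8 against 2 to 7, and adipocyte genes (5 of 7 with reads, Adipoq and Plin1 at 0) 5 to 9 against 13 to 28, or 0.103% to 0.192% against 0.171% to 0.392% of back-spliced reads. As shares of the library, these 3 lists overlapped between the diets and the fibroblast list did not. Striated muscle genes (2 of 11 with reads) had 1 to 9 against 2 to 5 reads, and the nerve and glia list had 1 read in all. In whole aorta, fewer cells of a type and less RNA per cell cannot be told apart. The part of these marker levels in the results that follow was not tested.

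The first question was whether these genes gave more or less of the circular RNA on one diet. Member circles had 164, 212 and 211 reads in HFD-fed replicates 1 to 3 and 253, 289 and 253 in chow diet-fed replicates 1 to 3. As shares of all back-spliced reads these were 3.49%, 3.77% and 4.33% against 3.34%, 4.05% and 3.38%, so the groups overlapped. The exact 95% binomial intervals reached from 2.99% to 4.94% over the HFD-fed and from 2.94% to 4.53% over the chow diet-fed aortas, and cover counting error only. The mean share was 3.86% ± 0.425 in HFD-fed and 3.59% ± 0.397 in chow diet-fed mice (SD, n = 3 each), a difference of 0.276 percentage points that is smaller than either SD.

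A few circles held much of the signal. The 3 circles with the most reads held 20.1% of the member reads, the top 10 held 37.8% and the top 20 held 49.1%. At the other end, 249 of the 337 circles (73.9%) had reads in a single aorta, close to the 72.3% of all circles, and 10 had reads in all 6 aortas. Only 25 member circles had at least 10 reads over the 6 aortas. Of the entries, 320 were exonic and 34 intronic, and the intronic ones held 49 reads with at most 3 each.

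**Figure D1:**
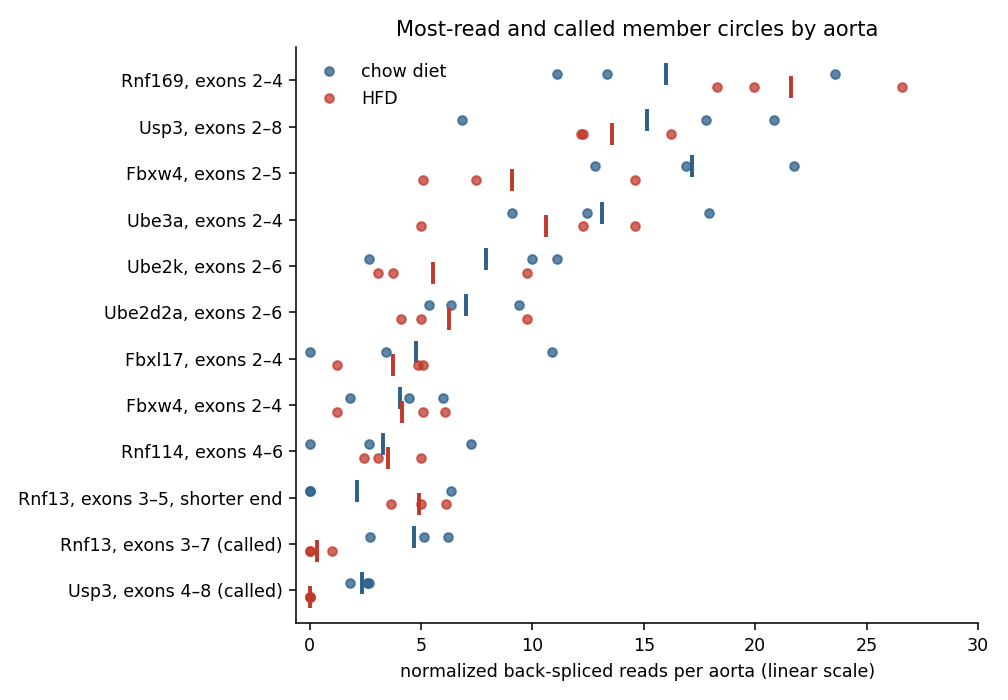
Normalized back-spliced reads (counts scaled by effective library size, linear axis) in each of the 3 HFD-fed and 3 chow diet-fed aortas, for the 10 member circles with the most reads and the 2 called circles below them. Dots are aortas and vertical ticks are the means of 3. The HFD and chow diet dots interleave for the 10 most-read circles, and stand apart in the 2 rows marked as called.

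The circle with the most reads came from Rnf169, a RING ligase that binds ubiquitylated histones beside DNA breaks. Its exons 2 to 4 make a circle of 340 nt, and it was the only circle of its host gene. It had 16, 26 and 15 reads in the HFD-fed and 15, 26 and 13 in the chow diet-fed aortas. Both diets had 1 high aorta and 2 lower ones, so the groups overlapped. After normalization to effective library size, the level was 21.6 ± 4.39 against 16.0 ± 6.65 reads (SD, n = 3 each), a log2 fold change of 0.44 (SE 0.40, adjusted p = 0.846, edgeR).

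Usp3, a deubiquitinase of histones H2A and H2B, gave the next, exons 2 to 8 in 670 nt. Its reads were 13, 12 and 10 against 20, 23 and 8. The lowest aorta and the 2 highest were all chow diet-fed, and the log2 fold change was -0.16 (SE 0.46, adjusted p = 0.952), or 0.02 with library size alone.

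Fbxw4, an F-box protein with WD repeats, gave mmu_circ_0000955 from exons 2 to 5 (510 nt). It had 6, 5 and 12 reads in HFD-fed and 19, 24 and 15 in chow diet-fed aortas. The counts did not overlap, but the normalized reads did: HFD-fed replicate 3 stood at 14.6 and chow diet-fed replicate 3 at 12.8. The means were 9.07 ± 4.95 and 17.2 ± 4.49 normalized reads, with a log2 fold change of -0.92 (SE 0.50, p = 0.063, adjusted p = 0.605, edgeR; two-sided exact permutation p = 0.2, where 3 aortas against 3 allow no p under 0.1). It missed the DEC criteria here, and met them at the authors' depth (-1.02), with limma (-1.03), with no filter, without HFD-fed replicate 3 (-1.53) and without chow diet-fed replicate 3 (-1.22). The other Fbxw4 circle of the top 10, mmu_circ_0000956, stops at exon 4 (415 nt). Its 1, 5 and 5 against 5, 2 and 7 reads overlapped, and its log2 fold change of 0.03 (SE 0.86) turned negative under several settings.

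Ube3a, the HECT ligase whose maternal copy is lost in Angelman syndrome, had 4, 12 and 12 against 14, 10 and 21 reads for circRNA2526 (exons 2 to 4, 232 nt, of which 65 are coding). This is the only circle of the top 10 that holds a start codon, and most of it lies before the coding sequence, so its sequence is not shown. The groups overlapped, with the lowest aorta on the HFD and the highest on the chow diet (log2 fold change -0.30, SE 0.51).

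E2 enzymes gave the next pair. Ube2k, which builds ubiquitin chains, had 3, 3 and 8 against 3, 11 and 13 reads for its circle of exons 2 to 6 (465 nt, log2 fold change -0.53, SE 0.69). Ube2d2a, an E2 that works with many RING ligases, had 4, 4 and 8 against 6, 7 and 11 reads for circRNA1020 (exons 2 to 6, 374 nt, -0.17, SE 0.69). In both, HFD-fed replicate 3 was the highest of its diet. Its 8 reads lay within the chow diet counts, but for Ube2d2a its 9.74 normalized reads were the highest of all 6 aortas.

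The last 3 of the top 10 were less evenly spread. Fbxl17, an F-box protein that acts on wrongly paired BTB proteins, had 1, 5 and 4 against 0, 12 and 4 reads for exons 2 to 4 (513 nt, -0.31, SE 0.86), which rests on chow diet-fed replicate 2: without it the log2 fold change was 0.96. Rnf114, a RING ligase, had 4, 3 and 2 against 3, 8 and 0 reads for exons 4 to 6 (373 nt, 0.08, SE 0.96). The Rnf13 circle circRNA3898 had 4, 6 and 3 against 0, 7 and 0 reads and is described with its host gene. With 20 reads it tied with the Rnf114 circle and with the single Ube2e3 circle, circRNA2481. The latter had 0, 3 and 3 against 2, 12 and 0 reads.

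The 10 most-read circles had further features in common. Of these circles, 8 begin with exon 2 of their transcript, 9 are made of coding sequence alone, 7 had reads in all 6 aortas and 7 carry a catalogue name. Reads in all aortas follow in part from the choice by reads. Over all exonic member circles, 31.6% began with exon 2, and these held 57.8% of the exonic member reads. For the circles of all other host genes the values were 28.1% and 40.8%. The median circle of both sets had 4 exons, the median length was 533 nt against 555 nt, and 3.63% against 5.80% were single exons. Circles of coding sequence alone made up 85.9% of member circles and 82.5% of the others, and 33.7% against 31.4% carried a catalogue name. These shares are descriptions of circles from the same libraries, and no test was made of them. The top 10 were not compared with equally well-read circles of other genes.

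Between the diets, 88 of the 337 member circles had reads in at least 2 aortas and could be tested. The 2 that were called were both lower in HFD-fed mice. Across all circles tested, 3.4% were called, and 2.34% of the circles tested were called lower, so 2 of 88 is no more than the background and is not a result about ubiquitin genes. Neither passed the adjustment over all circles, with adjusted p = 0.605 for both (edgeR). The median log2 fold change was -0.05 over the member circles tested and -0.13 over all circles tested. Circles that passed the filter only through the diet in which they were high had to differ, and 9 of the 88 had reads on a single diet. In 4 of the 88 the normalized reads of the diets did not overlap, 1 higher and 3 lower on the HFD, against 7.22% of all circles tested. With 3 aortas a diet, the p-values measure the spread between these aortas, and the smallest p of an exact permutation test is 0.1.

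**Figure D2:**
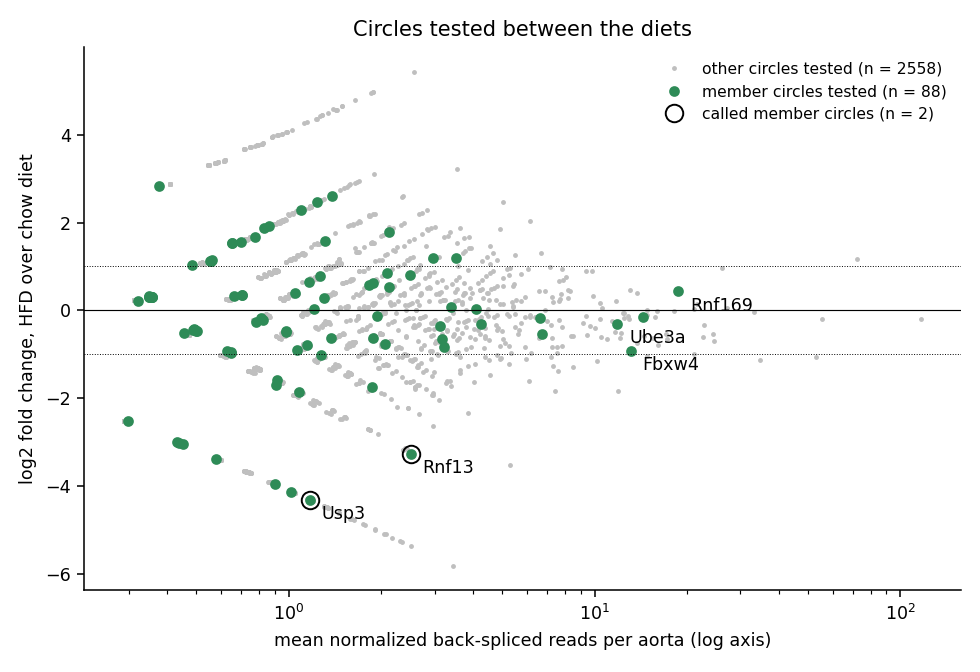
Log2 fold change of HFD over chow diet against the mean normalized reads per aorta (log axis) for all circles tested, with the 88 member circles in green and the 2 called ones ringed. Dotted lines mark a log2 fold change of 1 and -1. The member circles lie among the grey ones, and the called ones are at the lower left, at few reads.

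The called circle with more reads was Rnf13 mmu_circ_0010726, exons 3 to 7 in 492 nt. Rnf13 is a RING ligase anchored in the membranes of endosomes and lysosomes. The circle had 0, 1 and 0 reads in HFD-fed and 7, 3 and 6 in chow diet-fed aortas, so every chow diet-fed aorta stood above every HFD-fed one. The normalized means were 0.341 ± 0.590 and 4.69 ± 1.79 reads, with a log2 fold change of -3.26 (SE 1.35, p = 0.016, adjusted p = 0.605; exact permutation p = 0.1). Since the HFD arm rests on 1 read, the ratio of chow diet to HFD of 12.2 has a counting interval from 1.90 to 513. The call was lost without chow diet-fed replicate 1 (-3.08) and with the replicate number as a block (-3.25).

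The other was Usp3 mmu_circ_0015811, exons 4 to 8 in 477 nt, with 0, 0 and 0 against 3, 2 and 3 reads. No aorta had more than 3 reads, the number taken here as the smallest that can be told from none, so no fold is given, and the fitted log2 fold change of -4.31 (SE 2.18, p = 0.048, adjusted p = 0.605, edgeR; exact permutation p = 0.1) depends on the prior count. The call was lost without any 1 of the 6 aortas (-4.23 to -4.50), with library size alone (-4.23), with DESeq2 (-3.37), with no filter (-4.34) and with the block (-4.28). The larger Usp3 circle, which contains these exons and had 86 reads, was not called.

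The remaining circles without overlap were not called. Nedd4, a HECT ligase for membrane receptors and channels, had 1, 0 and 1 against 3, 3 and 4 reads for circRNA2236 (log2 fold change -1.75, SE 1.42, adjusted p = 0.715; ratio of chow diet to HFD 3.83, counting interval 0.815 to 35.9). Trip12, a HECT ligase, had 1, 2 and 2 against 0, 0 and 1 reads for mmu_circ_0009014 (2.29, SE 1.91, adjusted p = 0.741). Both were named after their values were seen.

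Rnf13 is the member whose reading depends most on how entries are joined. Its host gene had 63 reads in 8 circles, and 4 of them, with 50 of the 63 reads (79.4%), share the acceptor of exon 3 seen in the sequences above. Summed over the gene, the reads were 10, 12 and 3 in HFD-fed and 10, 13 and 15 in chow diet-fed aortas. These overlapped, with a log2 fold change of -0.24 (SE 0.53, adjusted p = 0.956). Without HFD-fed replicate 3, it was 0.20.

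The table lists each of the 3 larger circles as a pair of entries that start 1 base apart. The entry of circRNA3898 at the exon start had 0, 6 and 0 against 0, 7 and 0 reads, and the entry 1 base later had 4, 0 and 3 against 0, 0 and 0. The entry of mmu_circ_0010724 at the exon start had 4, 5 and 0 against 0, 0 and 0 reads, and its partner 0, 0 and 0 against 0, 3 and 0. The entry of mmu_circ_0010726 at the exon start had 0, 1 and 0 against 0, 3 and 0 reads, and its partner 0, 0 and 0 against 7, 0 and 6. In every aorta with reads, 1 entry of the pair held all of them.

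Taken as deposited, 91 of the 354 member entries were tested and 3 were called, all from these Rnf13 pairs. All 3 had reads on a single diet, as had 14 of the 91, and passed the filter only through the diet in which they were high. The background was 4.06% of all entries tested, 1.29% higher and 2.77% lower in HFD-fed mice. Higher in HFD-fed mice were mmu_circ_0010724 (fitted log2 fold change 4.77, SE 2.00, adjusted p = 0.576, edgeR) and circRNA7065, the later entry of circRNA3898 (4.51, SE 2.07, adjusted p = 0.576). Lower was circRNA2608, the later entry of mmu_circ_0010726 (-5.01, SE 1.95, adjusted p = 0.576). A diet was at 0 in each, so these fitted values depend on the prior count. Against a floor of 3 reads per aorta the means were at least 1.20-fold and 1.02-fold higher and at least 1.15-fold lower. In each entry an aorta of the higher diet also had 0 reads, so the diets overlapped (exact permutation p = 0.4 for each). The call on circRNA7065 was lost with DESeq2 (4.31), limma (1.63), the block (4.30) and without any chow diet-fed aorta in turn (4.42 to 4.48). The call on mmu_circ_0010724 was lost with the block (4.53) and without any chow diet-fed aorta in turn (4.74 to 4.79), and that on circRNA2608 with DESeq2 (-4.03), the block (-4.79) and without HFD-fed replicate 2 (-5.06).

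Joined into circles, neither upward call was made. The circle circRNA3898 had a log2 fold change of 1.20 (SE 0.97, adjusted p = 0.707) and mmu_circ_0010724 one of 1.79 (SE 1.30, adjusted p = 0.612), and both overlapped between the diets. The former met the criteria with limma (1.64) and without chow diet-fed replicate 2, which held all 7 of its chow diet reads (fitted value 5.26 against a diet at 0). The downward call on the exon 3 to 7 circle stayed. The 2 exon 3 to 5 circles are the same sequence up to the last 10 bases, GTAAGTACAG, which the longer one adds after exon 5 of the shorter one (305 nt against 295 nt).

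**Figure D3:**
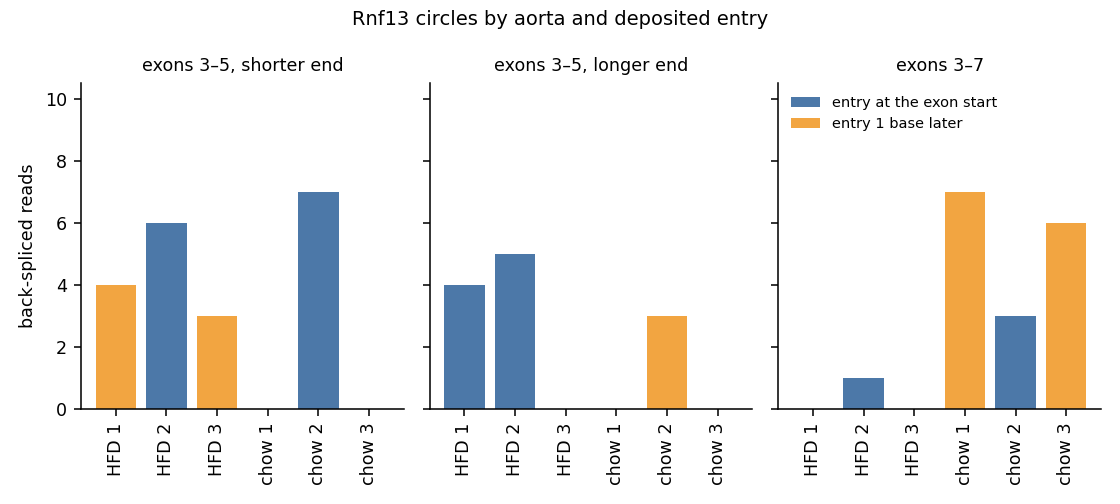
Back-spliced reads (linear axis) in each of the 6 aortas for 3 Rnf13 circles that start at exon 3, split by the deposited entry that holds them. Blue is the entry at the exon start and orange the entry 1 base later. No bar has both colours, and the exon 3 to 7 circle has 16 of its 17 reads in the chow diet-fed aortas.

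The same held for all 17 member pairs of entries 1 base apart. They gave 68 cases of a pair with reads in an aorta. The reads sat at the earlier start in 43 and at the later start in 25, and in 0 of the 68 did both entries have reads. Over the 475 such pairs of the whole table, both had reads in 9 of 1672 cases. Of the 320 exonic member entries, 290 start at an annotated exon start and 29 start 1 base after one, and 318 end at an annotated exon end.

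Per host gene, 46 of the 112 genes had 1 circle, 43 had 2 to 4 and 23 had at least 5. Birc6 had 20 circles and Usp34 had 10. Many circles did not mean many reads. Birc6 had 33 reads over its 20 circles, the largest of which held 12.1% of them, while Rnf169 and Ube3a had 111 and 73 reads in a single circle. Reads in all 6 aortas were found for 20 host genes.

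**Figure D4:**
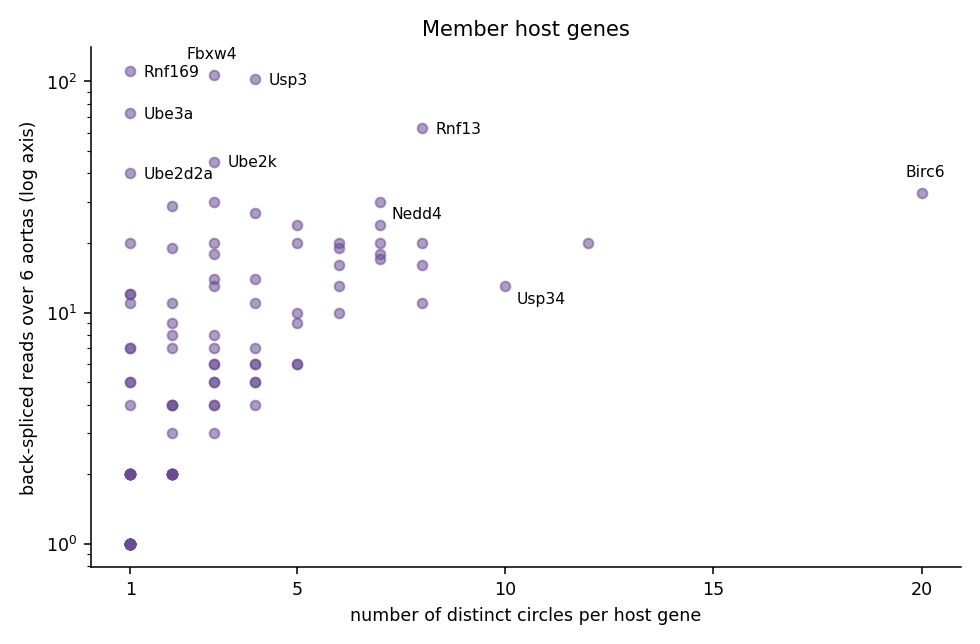
Back-spliced reads over the 6 aortas (log axis) against the number of distinct circles for each of the 112 member host genes, each a dot, with darker dots where genes coincide. Rnf169 and Ube3a stand at the top left with 1 circle, and Birc6 at the far right with 20 circles and 33 reads.

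Of the host genes, 76 of 112 were tested and 0 were called (edgeR, 0 also at an unadjusted p under 0.05; DESeq2 0, limma 1, edgeR with the authors' depth 1), against 4.33% of all host genes tested. The smallest p was 0.052, for Rnf4 (0, 0 and 0 against 0, 3 and 4 reads, adjusted p = 0.684). The median log2 fold change was 0.03 over the member genes and -0.13 over all host genes tested. In 5 of the 76 the diets did not overlap, 3 higher, among them Usp54, and 2 lower in HFD-fed mice, Nedd4 and Ubr3, against 9.6% of all host genes. Neither count stands above its background.

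By class, the RING ligases held the most reads (31 genes, 1.07% ± 0.167 of back-spliced reads in HFD-fed and 0.962% ± 0.129 in chow diet-fed mice, SD, n = 3 each). Cullins and F-box proteins followed (23 genes, 0.767% ± 0.115 and 0.833% ± 0.208), then deubiquitinases (27 genes, 0.755% ± 0.182 and 0.627% ± 0.138), HECT ligases (14 genes, 0.691% ± 0.0614 and 0.552% ± 0.108) and E2 enzymes (10 genes, 0.482% ± 0.175 and 0.463% ± 0.177). In these 5 classes the aortas of both diets overlapped. Classes were set by symbol, with Birc6, which carries an E2 domain, among the E2 enzymes. Ube2cbp (11 reads), named as a binding protein of an E2, was counted there by its symbol as well. No host gene was called in any class.

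**Figure D5:**
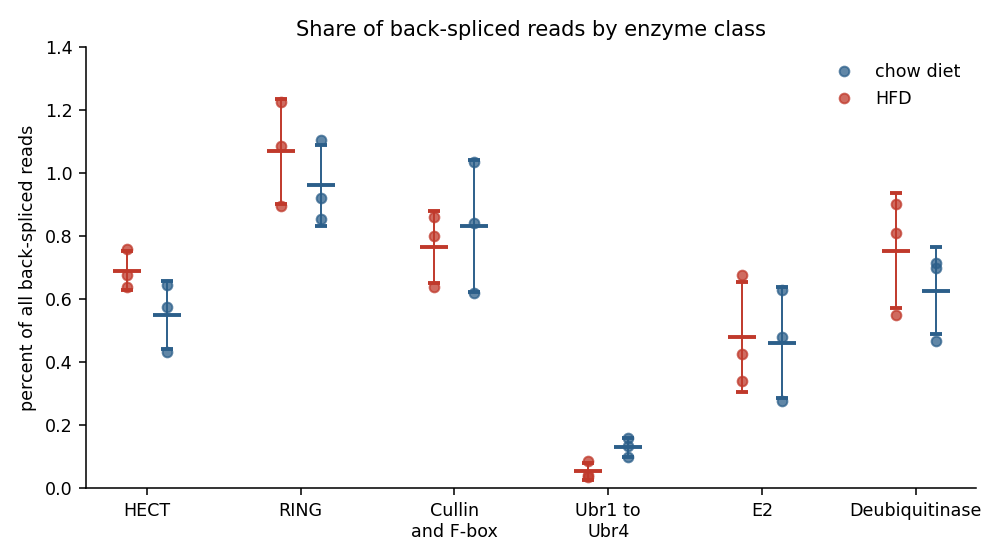
Share of all back-spliced reads (percent, linear axis from 0) taken by the circles of each enzyme class in each aorta. Dots are aortas, horizontal ticks the means and bars the SD of 3 aortas. The diets interleave in 5 classes, and Ubr1 to Ubr4 sit lowest, with the HFD-fed aortas below the chow diet-fed ones. Ube4b and the 2 genes outside these classes are not drawn.

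The exception was the smallest class drawn, Ubr1 to Ubr4. Ubr1, Ubr2 and Ubr4 recognise proteins by a destabilising first residue, and Ubr3 is related to them in sequence. Together they had 4, 2 and 2 reads in HFD-fed and 12, 7 and 10 in chow diet-fed aortas, or 0.0539% ± 0.0272 against 0.13% ± 0.0303 of back-spliced reads, and no HFD-fed aorta reached the lowest chow diet-fed one. Ubr3 held most of them, with 2, 0 and 1 against 5, 7 and 5 reads and no overlap. Its log2 fold change was -2.01 (SE 1.13, p = 0.076, adjusted p = 0.684; exact permutation p = 0.1), and its ratio of chow diet to HFD was 4.39 (counting interval 1.27 to 23.4). It met the DEC criteria with limma (-1.75) and without HFD-fed replicate 1 (-2.85). Its reads were spread over 7 circles, the largest with 35.0% of them. Ubr1 had 0, 0 and 0 against 2, 0 and 3 reads, Ubr2 had 1, 1 and 0 against 3, 0 and 2, and Ubr4 had 1, 1 and 1 against 2, 0 and 0, so each of these overlapped between the diets. Each had 0 reads in chow diet-fed replicate 2, so without Ubr3 the class overlapped as well. The separation of the class thus rests on Ubr3, and no test was made of the class.

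Among the HECT ligases, Nedd4 had 3, 0 and 2 against 5, 5 and 9 reads over 7 circles, with no overlap (log2 fold change -1.48, SE 0.97, adjusted p = 0.684). Trip12 had 2, 4 and 4 against 2, 5 and 1 (0.65, SE 1.05) and Huwe1, a very large HECT ligase, 4, 2 and 0 against 2, 2 and 0 (0.87, SE 1.38). None of these met the criteria.

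Fbxw4 led the F-box genes with 7, 10 and 17 against 24, 26 and 23 reads. As for its main circle, the counts did not overlap, but the normalized reads did, and the log2 fold change was -0.72 (SE 0.42, p = 0.084, adjusted p = 0.684, edgeR; exact permutation p = 0.2). Without HFD-fed replicate 3, the highest of its diet, it met the criteria at -1.11. Usp3 led the deubiquitinases with 15, 12 and 12 against 27, 25 and 11 reads (-0.32, SE 0.42). Usp54, a Usp family gene, had 4, 1 and 2 against 0, 1 and 1 reads with no overlap after normalization (1.98, SE 1.49, adjusted p = 0.752).

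The other leading host genes overlapped between the diets. Rnf169 stood at 0.43 (SE 0.40) and Ube3a at -0.31 (SE 0.50) on the log2 scale, each with the reads of its single circle. Ube2k had 4, 3 and 8 against 3, 14 and 13 reads (-0.61, SE 0.65) and Ube2d2a -0.20 (SE 0.67). Birc6, a giant inhibitor of apoptosis that also conjugates ubiquitin, had 5, 7 and 4 against 4, 6 and 7 (0.27, SE 0.73). Rnf114 had 4, 7 and 4 against 5, 8 and 2 (0.34, SE 0.77), and Rnf216, a ligase that targets Toll-like receptors, 3, 4 and 5 against 5, 5 and 8 (-0.20, SE 0.78). The U-box ligase Ube4b had 4, 1 and 0 against 1, 0 and 0 (2.28, SE 1.79, with 0.75 without HFD-fed replicate 1 and 4.02 without chow diet-fed replicate 1), and Ube2f, which conjugates NEDD8 and not ubiquitin, 0, 2 and 0 against 0, 0 and 2.

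The rest of the pathway was taken from lists of genes that the symbols above leave out. Of 70 symbols of other ligases and subunits, 31 had reads and 24 were tested, and 2 were called, both lower in HFD-fed mice, where 4.33% of all host genes tested were called. March3, a membrane-bound ligase, was called with 0, 0 and 0 against 4, 2 and 2 reads (adjusted p = 0.684, edgeR), and passed the filter only through the diet in which it was high. Of 27 other deubiquitinases 9 had reads, 5 were tested and 1 was called, few genes to set against the same background. This was Cyld, a deubiquitinase that dampens NF-κB signalling, with 0, 0 and 0 against 11, 3 and 1 reads (adjusted p = 0.602, edgeR), which likewise passed only through the chow diet, with 11 of its 15 reads in chow diet-fed replicate 1. Of 45 genes of E1 enzymes, ubiquitin, its receptors and the proteasome 12 had reads, 6 were tested and 0 were called. The most-read genes of these lists were not called. Arih1, a ligase that works with cullins, had 6, 12 and 10 against 12, 7 and 11 reads (0.26, SE 0.55), the deubiquitinase Zranb1 3, 7 and 4 against 14, 13 and 4 (-0.78, SE 0.65), and Ubqln1, which brings ubiquitylated proteins to the proteasome, 9, 12 and 0 against 2, 9 and 5 (0.72, SE 0.69).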

How the data were processed

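The authors isolated RNA with TRIzol, removed ribosomal RNA, treated it with RNase R per the labels, and sequenced strand-marked paired-end libraries. They trimmed reads with Cutadapt and called circRNAs with TopHat-Fusion, CIRCexplorer and CIRI. The deposited counts are raw back-spliced reads per circRNA and aorta, and the deposited signal (SRPBM) is the count divided by a library depth, which the ratio of both gave. How the callers' results were combined, and the genome build, are not given in the sources used here. Of 8992 exonic entries, 7912 start at an exon start of GENCODE vM21, so positions are for GRCm38. The 1224 entries whose host was an Ensembl identifier were all matched to a symbol. The deposited fold changes, directions, p-values, q-values and significance marks are the authors' own comparison and were not used.

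Counts were summed per circle and per host gene. After TMM normalization, edgeR 4.0.16 (glmQLFit, glmQLFTest, R 4.3.3) tested all features with reads in at least 2 aortas, with Benjamini-Hochberg adjustment over all features tested. For normalized reads, each count was divided by its effective library size and scaled to the mean of these sizes. A fold against a diet at 0 uses a floor of 3 reads per aorta. Single values were compared by two-sided exact permutation tests (scipy 1.17.1). Alternatives were DESeq2 1.42.0, limma 3.58.1 on log2 SRPBM plus 13.6, library size alone, the authors' depth, 3 other filters, a block for the replicate number, and fits without each aorta in turn. The fits were tested on simulated counts, and the criteria, which use an unadjusted p, also made calls where nothing had been changed. Named genes are the called ones, the 10 circles and host genes with the most reads, the leading gene of each class, the 5 genes named singly in the rule, and of the other lists the called genes and the 3 with the most reads. Others were named after their values were seen, and some genes of the rule are not reported here. The members and gene lists were chosen with earlier results of these data known. Ube2e3 circRNA2481 could not be placed on exons of its listed transcript.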

Additional observations from a re-analysis of the deposited data

How the results depend on the processing

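The number of member circles called, 2, was 1 with library size alone, 1 with DESeq2, 4 with limma and 1 with at least 10 reads, and 1 to 4 with an aorta left out. The number of member entries called, 3, was 0 when 3 aortas had to have reads, 1 with DESeq2, 1 with at least 10 reads, and 1 to 4 with an aorta left out. The number of member host genes called, 0, was 1 with the authors' depth, 1 with limma, and 0 to 3 with an aorta left out: 2 without HFD-fed replicate 1, 3 without HFD-fed replicate 3 and 3 without chow diet-fed replicate 1. Over all circles, 90 calls became 21 with DESeq2 and 48 with at least 10 reads, and 47 to 114 with an aorta left out. The difference in the share of member reads, 0.276 percentage points, was 0.185 with exonic entries alone and 0.0440 to 0.505 with an aorta left out. With the replicate number as a block, 0 member circles, 0 member entries, 0 member host genes and 30 circles in all were called. The numbers do not pair the aortas, since deviations of same-numbered aortas correlated at -0.058 to -0.049 over 200 circles, and a call lost under the block is not a weaker effect.

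Some fold changes that were not called turned their sign. Fbxw4 mmu_circ_0000956 (0.03) was -0.059 with the authors' depth, -0.12 with limma, -0.028 with no filter and -0.024 when 3 aortas had to have reads. Fbxl17 mmu_circ_0000802 (-0.31) was 0.17 with limma, and Usp3 mmu_circ_0001798 (-0.16) was 0.021 with library size alone. With an aorta left out, the ranges were -0.97 to 0.96 for Fbxl17 mmu_circ_0000802, -0.44 to 0.33 for Fbxw4 mmu_circ_0000956, -0.60 to 1.17 for Rnf114 mmu_circ_0009604, -0.042 to 1.49 for Huwe1 (gene), -0.0040 to 0.94 for Rnf114 (gene), -0.51 to 0.20 for Rnf13 (gene), -0.36 to 0.059 for Rnf216 (gene), -0.57 to 0.098 for Ube2d2a (gene), -0.21 to 0.85 for Ube2f (gene) and -0.50 to 0.094 for Ube3a (gene). The cause of these changes was not tested. Of the other values for single circles, entries and host genes, 356 kept their direction and side of the criteria, 10 gained a call and 25 lost one. The depth limits all of this, since 249 of the 337 member circles had reads in a single aorta and 25 had at least 10 reads.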

Other observations

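The study followed circRNAs as possible partners of microRNAs, so the member circles were searched for 1 seed site. The mature miR-17-5p of the RefSeq miRNA table reads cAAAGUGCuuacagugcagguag, with its seed (bases 2 to 8) in capitals, and the site searched on the strand of each circle, junction included, was GCACTTT. It was present in 19 of 301 member circles (6.31%) and in 427 of 7995 circles of other host genes (5.34%). Per length these were 0.0779 and 0.0726 sites per kb. Among circles of 200 to 1000 nt, 5 of 228 member circles (2.19%) and 244 of 6011 others (4.06%) had a site. The most-read member circle with a site was Usp12 mmu_circ_0012340 (605 nt), with 2, 2 and 2 reads in HFD-fed and 2, 0 and 3 in chow diet-fed aortas. The other 18 circles with a site had at most 3 reads each. The matches are a description of letters, and binding was not measured.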
